A study of Mus musculus with 59 samples.

Results

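The genes described here encode the machinery with which a nerve terminal releases and recovers synaptic vesicles. They are 44 listed genes for vesicle proteins, SNARE proteins, active zone proteins, endocytosis proteins and neurexins, taken by name from a table of 51456 genes. All 44 were found, and all 44 were among the 16839 genes with a mean of at least 10 normalized counts over all libraries, which were the genes tested. The tissue was prefrontal cortex, taken on postnatal day 25 from C57BL/6J mice. The libraries are labelled heterozygous (HT, 29 libraries) or wild type (WT, 30 libraries) for the allele Chd8-S62X, a change in the chromatin remodeller gene Chd8. Pups of both genotypes and both sexes had received fluoxetine, lithium or vehicle through the milk of their dams from day 3 to day 24, a period of 3 weeks that ended the day before collection. Fluoxetine acts on the serotonin transporter, and lithium on enzymes such as glycogen synthase kinase 3. Genotype, treatment and sex made 12 groups of 5 libraries each, with 4 libraries in the HT-labelled females given fluoxetine. The labels give no dose, dam or litter, so p-values measure the spread between libraries and cannot separate the drug from the dam.

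At a terminal, vesicles filled with transmitter carry synapsins, SV2 proteins, synaptophysin and Rab3 on their surface. They dock at the active zone, a protein meshwork of Bassoon, Piccolo, ELKS, RIM and RIM-binding proteins, and Munc13 proteins prime them. The vesicle SNARE synaptobrevin then zips with syntaxin and SNAP-25 on the plasma membrane, complexins hold and support the assembled complex, and synaptotagmins trigger fusion when calcium enters. NSF with its SNAP cofactors takes the spent SNARE complexes apart, and dynamin, amphiphysins and synaptojanin recover the membrane by endocytosis. Neurexins are presynaptic adhesion proteins that link this machinery to receptors across the cleft. In the cortex these genes are expressed above all by neurons, and different kinds of neurons use different family members.

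The 44 genes were compared by genotype label, drug and sex, and 5 of them passed the test in a comparison: Syn2, Vamp2, Dnajc5, Cplx1 and Sv2a. RefSeq promoter entries (GRCm38.p6, 300 bases each) matched 34 of the 44 genes and 3 of these 5; Vamp2 and Dnajc5 had no entry. The bases upstream of the start of Syn2 (lower with the HT label), Cplx1 and Sv2a (both higher with lithium) are shown because these genes passed and had an entry. Capitals mark GC boxes, the letters GGGCGG or their reverse complement CCGCCC. The plus strand window of Syn2 at chr6:115134652-115134901 held 2 GC boxes in 250 bases, that of Cplx1 on the minus strand at chr5:108550028-108550277 held 1 in 250 bases, and that of Sv2a on the plus strand at chr3:96180977-96181150 held 1 in 174 bases.
Syn2: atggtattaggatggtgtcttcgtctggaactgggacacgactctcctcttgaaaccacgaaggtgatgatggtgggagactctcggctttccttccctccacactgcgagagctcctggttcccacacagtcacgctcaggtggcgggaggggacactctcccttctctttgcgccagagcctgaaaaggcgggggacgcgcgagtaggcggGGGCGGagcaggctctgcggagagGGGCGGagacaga
Cplx1: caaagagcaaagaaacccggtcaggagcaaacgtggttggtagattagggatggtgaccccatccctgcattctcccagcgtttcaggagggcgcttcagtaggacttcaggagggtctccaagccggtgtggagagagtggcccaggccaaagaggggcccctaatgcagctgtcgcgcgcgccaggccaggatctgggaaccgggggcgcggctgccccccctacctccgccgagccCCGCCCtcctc
Sv2a: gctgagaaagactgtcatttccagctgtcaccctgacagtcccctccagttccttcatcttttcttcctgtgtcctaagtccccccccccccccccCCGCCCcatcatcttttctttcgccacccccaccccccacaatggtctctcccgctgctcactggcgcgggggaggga
Over the whole windows of 300 bases, a GC box on either strand was in 27 of the 45 windows of the 34 genes (60%) and in 35.7% of 32851 windows of all genes. A cyclic AMP response element (TGACGTCA, which is its own reverse complement) was in 2.22% and 1.79%, an NRF1 site (searched in its palindromic form without ambiguous bases) in 4.44% and 0.971%, and a TATA box (TATAAA on either strand) in 6.67% and 13.6%. The cyclic AMP response element lay in the window of Syn1, and the NRF1 sites in those of Bsn and Stxbp5. Among the 3 printed windows GC boxes were the only matches to these 4 motifs. Each match is a description of letters and was not tested further.

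Chd8 (ENSMUSG00000053754, chromosome 14, 52198151 to 52257780 in GRCm38, minus strand) lay between 5115 and 6626 normalized counts under the HT label and between 2828 and 4229 under the WT label. The groups did not overlap, and the higher level stood with the HT label (log2 difference 0.70 ± 0.027 SE, limma adjusted p = 9.23e-27). A loss of Chd8 transcript in heterozygotes would put them below wild type instead, so the genotype is given as labelled throughout, and each genotype direction rests on those labels. Libraries summed to between 30342600 and 33683900 normalized counts, and log2 values of pairs of libraries correlated at 0.966 to 0.991. All 8 markers of cortical excitatory neurons were present in the tissue, with summed levels of 125167 to 220375. Markers of the olfactory bulb, which lies next to the frontal cortex, ranged from 236 to 16794 in sum, and 8 libraries had striatal markers over 5 robust SDs above the median, 6 of them HT-labelled. No marker of these 3 lists was at 0 throughout.

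Levels differed widely between genes, within roles as well as between them, when counts were divided by the length of each gene's merged exons. Snap25, the SNARE of the plasma membrane, was highest at a mean of 9920 normalized counts per kb, followed by Syp (synaptophysin) at 8855, Vamp2 (synaptobrevin 2) at 7790 and Cplx1 (complexin 1) at 7738. Vamp2 and Cplx1, neighbours in this order, had overlapping ranges (6704 to 8773 and 6025 to 9045 per kb). By this measure active zone genes were lower, from Rims1 at 1393 per kb down to Unc13b (Munc13-2) at 126. This order depends on the lengths used. In counts not divided by length, Bsn (mean 19969) and Unc13a (17130) stood above Cplx1 (16938), while the other active zone genes stayed below it. The least abundant gene was Syn3 (synapsin 3) at 34.1 per kb, below Doc2b at 173.5 and Sv2c at 174, whose ranges overlapped each other. Endocytosis genes ran from Dnm1 (dynamin 1) at 6554 to Amph (amphiphysin) at 1531 per kb, and Nrxn2 and Nrxn3 stood at 954 and 628.

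**Figure D1:**
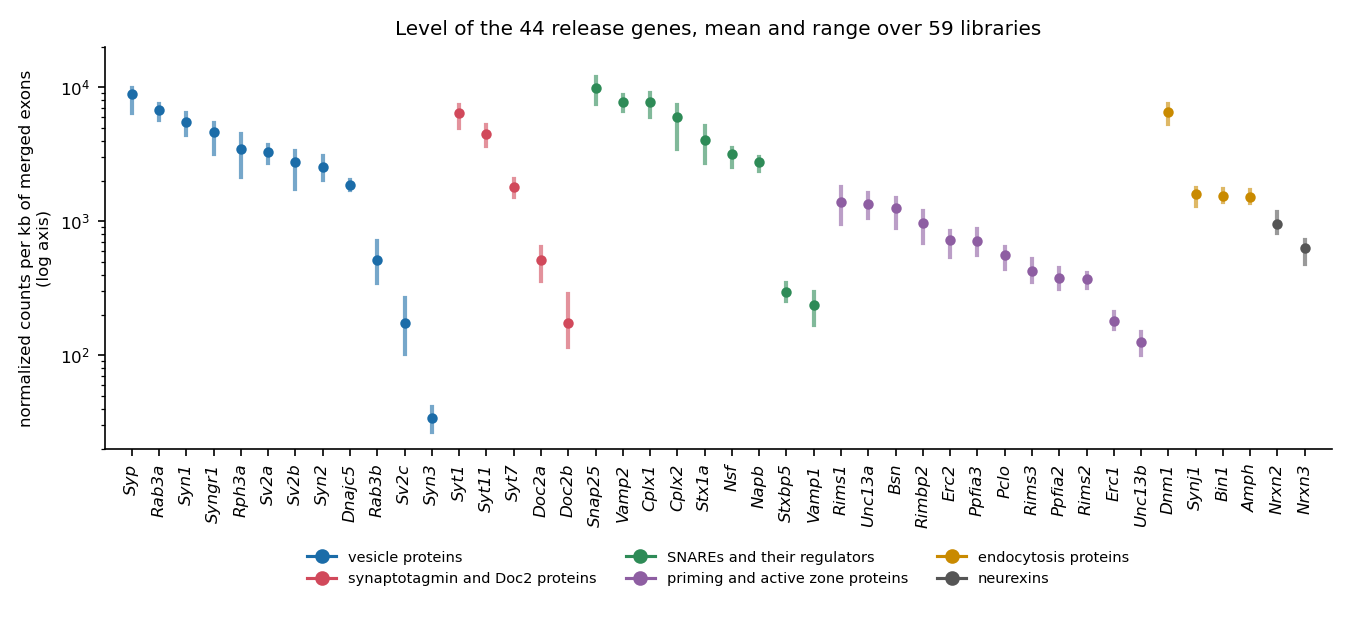
Mean level of each of the 44 release genes in normalized counts per kb of merged exons (log axis), with a vertical line from the lowest to the highest of 59 libraries and colours for roles. Snap25 stands highest at 9920 per kb and Syn3 lowest at 34.1.

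The genes also differed in how steady they were from library to library. The residual SD within groups, on the log2 scale of values plus 1, was smallest for Dnajc5 at 0.055, Bin1 at 0.060 and Sv2a at 0.063. Dnajc5 encodes cysteine string protein, a chaperone of SNARE proteins on vesicles, and its 59 libraries lay between 11884 and 14073 normalized counts. The residual SD was largest for Sv2c at 0.34, Rph3a at 0.26 and Doc2b at 0.25. Sv2c, a vesicle protein of the SV2 family, ran from 991 to 2601 normalized counts. Rph3a (rabphilin, a partner of Rab3) ran from 9989 to 20966, and Doc2b, a high-affinity calcium sensor, from 500.2 to 1254.

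Release genes lay mostly a little below the WT-labelled level in the HT-labelled libraries. Averaged over the 6 strata of treatment and sex, Syn2, Vamp2 and Dnajc5 fell, and no member rose (limma, adjusted p under 0.05 over all 16839 genes). Of all genes, 7.98% were called in this comparison and 4.31% were called lower, so 3 of 44 is near the background. Below 0 were 38 of the 44 members, against 49.2% of all genes, and 17 had an unadjusted p under 0.05 and were lower, against 13% of all genes. The median difference of the members was −0.05 on the log2 scale, against 0.00 for all genes. In bulk tissue, fewer cells of a type and less RNA per cell cannot be told apart. The genotype directions rest on labels that Chd8 does not bear out.

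Syn2 encodes synapsin 2, which tethers vesicles to each other and keeps the reserve pool together (ENSMUSG00000009394, chromosome 6, 115134902 to 115282006, plus strand). Its 29 HT-labelled libraries ran from 14385 over a median of 17439 to 19384 normalized counts, and its 30 WT-labelled libraries from 15875 over 18772 to 21441. The groups overlapped, but 26 of the 29 HT-labelled libraries lay below the WT-labelled median. The difference was −0.11 ± 0.027 (log2 ± SE, adjusted p = 0.00788), a fall by 7.16%. It was below 0 in 6 of 6 strata, from −0.21 in fluoxetine males to −0.02 in vehicle females. In fluoxetine males the HT-labelled libraries held 15000, 16132, 17118, 17724 and 17730 normalized counts and the WT-labelled ones 16655, 18699, 19513, 20398 and 21441. There a single WT-labelled library lay inside the HT-labelled range. In vehicle females the HT-labelled libraries held 15321, 16870, 18393, 19355 and 19384, and the WT-labelled ones, at 17523, 17672, 17926, 18217 and 18657, fell inside that range.

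Vamp2 encodes synaptobrevin 2, the main vesicle SNARE of the forebrain (ENSMUSG00000020894, chromosome 11, 69088490 to 69092384, plus strand). The HT-labelled libraries ran from 25536 over 28510 to 32304 normalized counts and the WT-labelled ones from 27432 over 30437 to 33416. Although the groups overlapped, 9 HT-labelled libraries lay below the lowest WT-labelled one. The difference was −0.08 ± 0.022 (log2 ± SE, adjusted p = 0.0186), a fall by 5.28%, and it was below 0 in 6 of 6 strata. In lithium males, where it was widest at −0.11, the HT-labelled libraries held 27079, 27216, 27408, 28027 and 30054 and the WT-labelled ones 29094, 29583, 30376, 30946 and 31028. All but a single HT-labelled library lay under that WT-labelled range.

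Dnajc5 (ENSMUSG00000000826, chromosome 2, 181520485 to 181555133, plus strand) had the smallest of the 3 shifts and the smallest spread. The HT-labelled libraries ran from 11884 over 12804 to 13780 normalized counts and the WT-labelled ones from 12074 over 13275 to 14073, with wide overlap. Its difference was −0.05 ± 0.016 (log2 ± SE, adjusted p = 0.0238), a fall by 3.63%, below 0 in 6 of 6 strata. In lithium females, the stratum of its widest difference (−0.08), the HT-labelled libraries held 11884, 12262, 12454, 13016 and 13501 and the WT-labelled ones 12997, 13100, 13253, 13382 and 13828. The groups shared the range above 12997 there. This call ended without the 8 libraries of high striatal markers (−0.06, adjusted p = 0.054) and with the excitatory neuron level as covariate (−0.04, adjusted p = 0.0552).

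**Figure D2:**
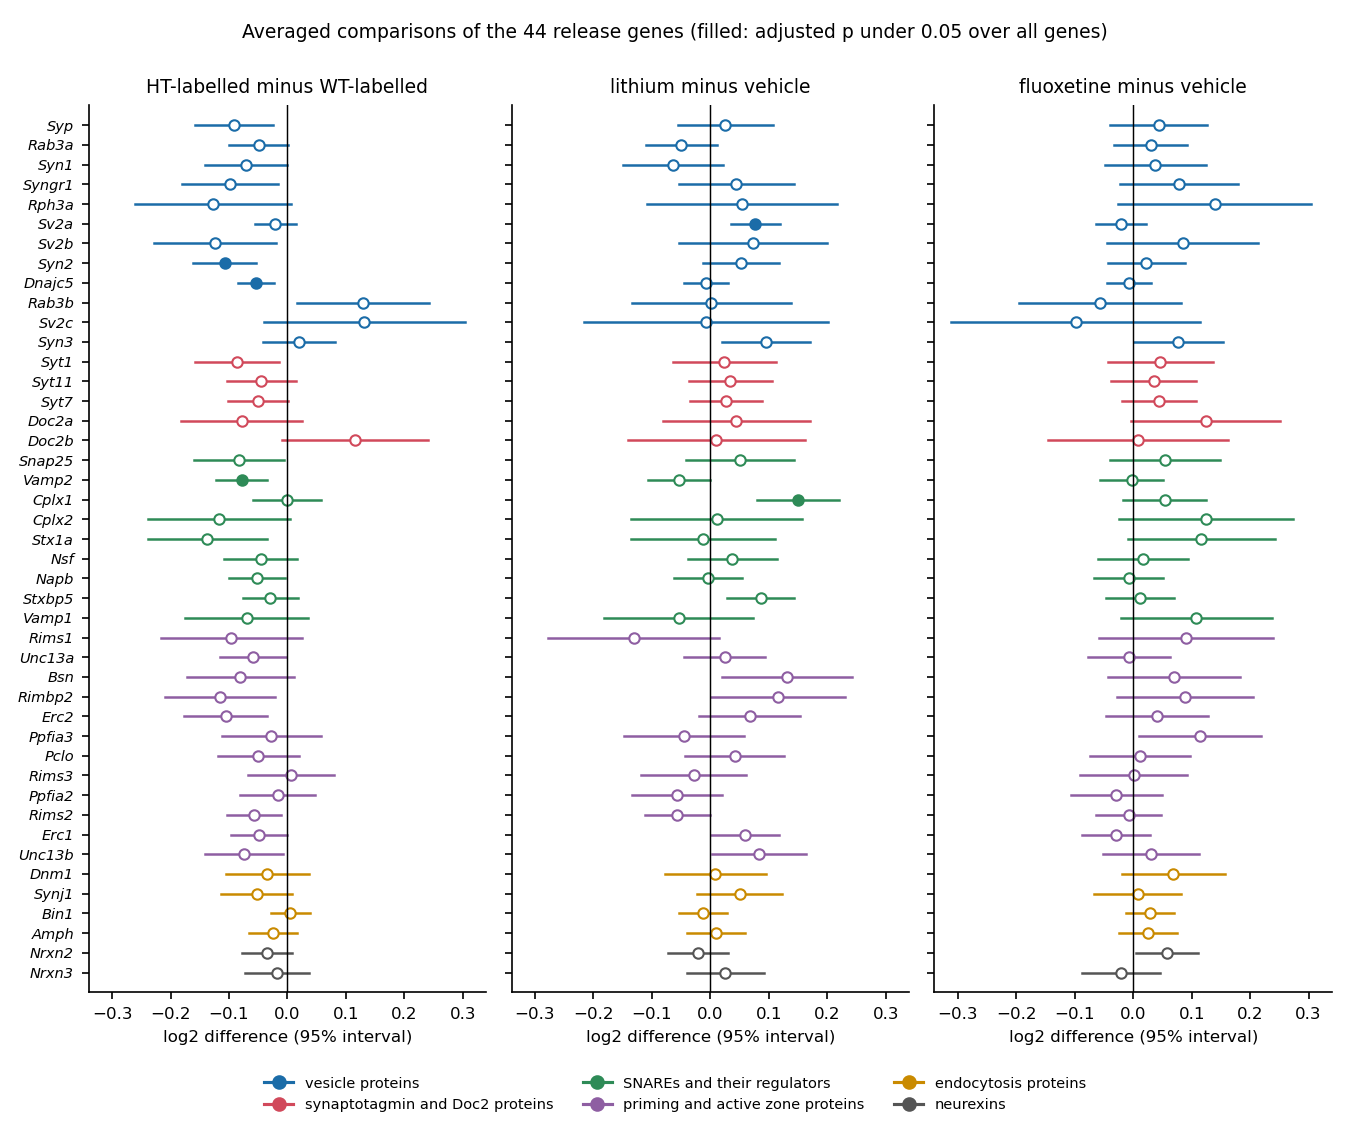
Log2 difference of each of the 44 release genes in the 3 averaged comparisons (x axis, point and 95% interval), sorted by role and level. Filled points mark the 5 calls: Syn2, Vamp2 and Dnajc5 lie left of 0 for genotype label, Cplx1 and Sv2a lie right of 0 for lithium, and none is filled for fluoxetine.

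By role, all 9 genes of SNAREs and their regulators lay below 0 for the HT label, with a median of −0.07, and 1 of them, Vamp2, was called. Stx1a (syntaxin 1A) had −0.14 ± 0.051 (adjusted p = 0.0827) and Cplx1 had −0.00 ± 0.029. Of 12 priming and active zone genes 11 lay below 0, and none was called. The nearest was Erc2, the ELKS family scaffold of the active zone, with −0.11 ± 0.035 (adjusted p = 0.0503). Its HT-labelled libraries ran from 5232 over 6890 to 7591 normalized counts and its WT-labelled ones from 5840 over 7341 to 8272, again overlapping. Among 12 vesicle protein genes 9 lay below 0, with Syp at −0.09 ± 0.033 (adjusted p = 0.075), whereas Rab3b at 0.13 ± 0.056 (adjusted p = 0.145) and Sv2c at 0.13 ± 0.086 lay above. The 4 endocytosis genes had values between −0.05 and 0.00, and the neurexins −0.03 and −0.02. The 95% intervals lay inside ±0.25 on the log2 scale for 42 of the 44 members, all except Sv2c and Rph3a.

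Within a single treatment no member was called for genotype label. Under vehicle 36 of 44 members lay below 0, with the smallest p values for Napb, a SNAP cofactor of NSF (−0.09 ± 0.041, adjusted p = 0.40), and Dnajc5 (−0.06 ± 0.027, adjusted p = 0.405). Of all genes 51.2% lay below 0 and limma called 0.202%; 3 members had an unadjusted p under 0.05, against 10.6% of all genes. Under fluoxetine 33 of 44 lay below 0, and Syn2 (−0.17 ± 0.047, adjusted p = 0.0667) and Nrxn2 (−0.11 ± 0.037, adjusted p = 0.145) came first. Of all genes 49.5% lay below 0 and 0.849% were called, and 6 members had an unadjusted p under 0.05, against 14.7% of all genes. In that stratum bulb markers differed by 0.65, myelin markers by 0.50, striatal markers by 0.48 and excitatory markers by −0.14, and none of them was called. With the excitatory level as covariate 19 members lay below 0 and 25 above, and the median turned from −0.05 to 0.02. Syn2 had −0.11 with that covariate (limma adjusted p = 0.00497), beside 303 of all genes called. Without a covariate, Syn2 under fluoxetine passed in 3 of the 59 fits that each left out 1 library. These left out HT-labelled vehicle female replicate 4 (adjusted p = 0.0498), HT-labelled vehicle male replicate 3 (0.0468) or WT-labelled fluoxetine male replicate 5 (0.0183). Under lithium 40 of 44 lay below 0, led by Vamp2 (−0.10 ± 0.037, adjusted p = 0.333) and Dnajc5 (−0.07 ± 0.027, adjusted p = 0.341), with 49.7% of all genes below 0 and 0.267% called. There 4 members had an unadjusted p under 0.05, against 10.1% of all genes. These directions too are those of the labels.

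Levels of cell type markers differed with the genotype label, though limma called no excitatory, bulb, myelin or striatal marker. The 8 excitatory neuron markers all lay below 0, and their mean log2 level was 0.11 lower (−0.11), with sums of 125167 to 220375 in HT-labelled and 154922 to 219527 in WT-labelled libraries. All 5 olfactory bulb markers lay above 0, with a level difference of 0.32 and sums of 370 to 16794 against 236 to 10960. All 7 myelin markers lay above 0 as well, with a difference of 0.17 and sums of 101882 to 215000 against 67564 to 244081, and striatal markers differed by 0.19. By treatment the myelin difference was 0.50 under fluoxetine (7 of 7 above 0), −0.00 under vehicle (3 of 7) and 0.01 under lithium (5 of 7). None of these markers was at 0 in every library. With the bulb level as covariate Syn2 had −0.10 (adjusted p = 0.000867), Vamp2 −0.07 (adjusted p = 0.00708) and Dnajc5 −0.05 (adjusted p = 0.0169). With the excitatory level as covariate Syn2 had −0.06 (adjusted p = 0.00137) and Vamp2 −0.05 (adjusted p = 0.0204), and the median of the 44 members was −0.01. The part of myelin in these differences was not tested.

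Lithium went with higher levels of 2 members. Averaged over the 4 strata of genotype and sex, Cplx1 and Sv2a rose against vehicle, no member fell, and 29 of 44 lay above 0, against 49.8% of all genes. Limma called 4.41% of all genes in this comparison and 2.8% higher, so 2 of 44 (both higher) is near the background. The median of the members was 0.02 on the log2 scale, against 0.00 over all genes. The fluoxetine and lithium comparisons share the same 20 vehicle libraries.

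Cplx1 encodes complexin 1, which binds the assembled SNARE complex and clamps and supports fusion (ENSMUSG00000033615, chromosome 5, 108518554 to 108550024, minus strand). The 20 lithium libraries ran from 16131 over 17907 to 19799 normalized counts and the 20 vehicle libraries from 13190 over 15994 to 18138. The ranges overlapped, yet 20 of 20 lithium libraries lay above the vehicle median and 10 above the highest vehicle library. The difference was 0.15 ± 0.035 (log2 ± SE, adjusted p = 0.00767), a rise of 11%. Taken alone no stratum was called (adjusted p from 0.342 to 1), and females with the HT label had 0.23 ± 0.070, those with the WT label 0.16 ± 0.070, males with the WT label 0.17 ± 0.070 and males with the HT label 0.03 ± 0.070. In HT-labelled females lithium libraries held 16276, 17262, 18156, 18791 and 19547 normalized counts and vehicle libraries 13190, 14649, 15620, 15750 and 17698. A single vehicle library reached into the lithium range. In WT-labelled males the values were 17137, 17196, 18462, 19141 and 19799 with lithium and 15460, 15578, 15887, 16267 and 18138 with vehicle. Again the highest vehicle library alone lay inside the lithium range. In HT-labelled males the values were 16131, 16329, 17266, 17657 and 18628 with lithium and 14636, 16679, 17119, 17775 and 17871 with vehicle, so the groups lay over each other.

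Sv2a encodes the most widespread SV2 vesicle glycoprotein, the binding site of the drug levetiracetam (ENSMUSG00000038486, chromosome 3, 96181151 to 96195521, plus strand). Its lithium libraries ran from 14987 over 16084 to 17126 normalized counts and its vehicle libraries from 14133 over 14968 to 16544. All 20 lithium libraries lay above the vehicle median, although the ranges overlapped. The difference was 0.08 ± 0.021 (log2 ± SE, adjusted p = 0.0221), a rise of 5.50%, above 0 in 4 of 4 strata (0.05 to 0.12). In WT-labelled males lithium libraries held 15924, 16337, 16417, 16820 and 16914 and vehicle libraries 14694, 14860, 14868, 15069 and 16544. There 4 of the 5 vehicle libraries lay below every lithium library.

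**Figure D3:**
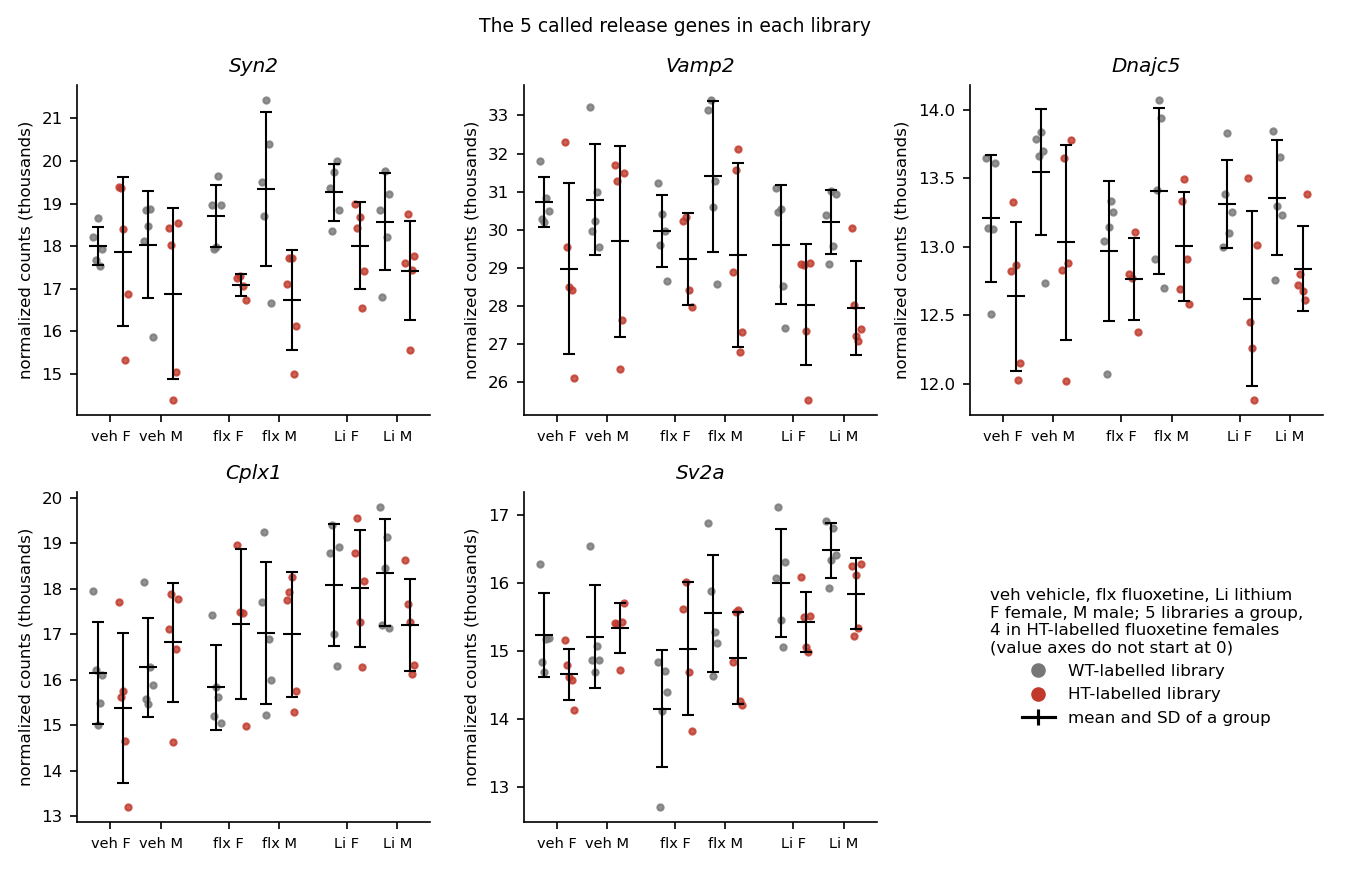
Normalized counts (axes not starting at 0) of the 5 called genes in each library of the 12 groups, with the mean and SD of each group. Syn2, Vamp2 and Dnajc5 lie lower in HT-labelled (red) than WT-labelled (grey) groups with overlap, and Cplx1 and Sv2a lie higher with lithium, where all 20 libraries stand above the vehicle median.

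Other members missed the threshold with lithium. Stxbp5 (tomosyn 1, an inhibitor of SNARE assembly) had 0.09 ± 0.029 (adjusted p = 0.0719) and lay above 0 in 4 of 4 strata. Its lithium libraries ran from 4415 over 5094 to 5683 normalized counts and its vehicle libraries from 4239 over 4798 to 5450. Syn3 had 0.10 ± 0.037 (adjusted p = 0.136), and Bsn (Bassoon) 0.13 ± 0.055 (adjusted p = 0.173). The active zone was divided: of 12 genes 7 lay above 0 and 5 below, from Bsn to Rims1, which had −0.13 ± 0.073 (adjusted p = 0.335) and whose interval was the only member interval to reach beyond ±0.25. Rims1 encodes RIM1, which ties vesicles and calcium channels to the active zone. Its lithium libraries ran from 7035 over 9485 to 11342 and its vehicle libraries from 7164 over 10715 to 13265, and 7 vehicle libraries lay above every lithium library.

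Within a genotype label, lithium gave no called member. In HT-labelled libraries Cplx1 (0.13 ± 0.050, adjusted p = 0.284) and Unc13b (0.14 ± 0.057, adjusted p = 0.376) came first, with 30 of 44 above 0 (50.9% of all genes) and 4 at an unadjusted p under 0.05 (10.2% of all genes), beside 0.238% of all genes called. In WT-labelled libraries Cplx1 (0.17 ± 0.050, adjusted p = 0.131) and Sv2a (0.09 ± 0.030, adjusted p = 0.153) did, with 32 of 44 above 0 (49.4% of all genes) and 3 at an unadjusted p under 0.05 (11.9% of all genes), beside 0.214% of all genes called. The difference between genotype labels in the response to lithium was called for no member and no gene (0% of all genes). Its smallest p values were those of Syn3 (−0.13 ± 0.075) and Bin1, an amphiphysin relative (−0.06 ± 0.040), both with an adjusted p of 1, and 0 members had an unadjusted p under 0.05, against 2.29% of all genes. For Cplx1 the response was 0.13 in HT-labelled and 0.17 in WT-labelled libraries.

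Levels of cell type markers differed with lithium too. Of the lists below, limma called 1 meningeal marker lower and 1 striatal marker higher, beside 4.41% of all genes called. Bulb markers lay below 0 in 5 of 5, with a level difference of −0.33 and sums of 439 to 13736 with lithium against 370 to 16794 with vehicle. Meningeal markers lay below 0 in 5 of 5 (−0.38, sums of 2053 to 4183 against 2703 to 15814), and striatal markers above 0 in 12 of 12 (0.24, sums of 8269 to 42391 against 6817 to 23455). Excitatory markers differed by 0.05, and none of these markers was at 0 in every library. Without the 8 libraries of high striatal markers Cplx1 had 0.16 (adjusted p = 0.0174) and Sv2a 0.08 (adjusted p = 0.0411). With the bulb level as covariate Cplx1 had 0.14 (adjusted p = 0.0039) and Sv2a 0.08 (adjusted p = 0.0152). The part of meningeal tissue was not tested.

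Fluoxetine gave no called member. Averaged over 4 strata, 33 of the 44 lay above 0, against 50.9% of all genes, with a median of 0.03. Limma called 11 of 16839 genes, 0.0653%, and 3 members had an unadjusted p under 0.05, all higher, against 6.63% of all genes. These were Nrxn2 (0.06 ± 0.026, adjusted p = 0.374), Ppfia3, a liprin scaffold of the active zone (0.11 ± 0.052, adjusted p = 0.376), and Syn3 (0.08 ± 0.038, adjusted p = 0.412). Doc2a, a calcium sensor of the Doc2 family, followed with 0.12 ± 0.063 (adjusted p = 0.431). The intervals of 40 members lay inside ±0.25. Bulb markers were lower in 5 of 5 (level difference −0.61, sums of 236 to 12705 against 370 to 16794), and excitatory markers were higher in 8 of 8 (0.10, sums of 139263 to 219527 against 125167 to 220375). Meningeal markers were lower in 5 of 5 (−0.34, sums of 1606 to 4132 against 2703 to 15814), and so were migrating neuroblast markers (−0.24, sums of 3061 to 12322 against 2603 to 15364). With the bulb level as covariate no member passed. With the excitatory level as covariate 21 members lay above 0 and 23 below, and the median turned to −0.01. No bulb, excitatory, meningeal or neuroblast marker was called by limma. The part of meningeal tissue and neuroblasts was not tested.

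In WT-labelled libraries Nrxn2 had 0.13 ± 0.036 with fluoxetine (adjusted p = 0.0964) and Ppfia3 0.15 ± 0.072 (adjusted p = 0.361), beside 0.19% of all genes called. Without WT-labelled fluoxetine male replicate 5 Nrxn2 passed (0.14, adjusted p = 0.0391). In HT-labelled libraries Vamp1 (0.18 ± 0.092) and Cplx1 (0.09 ± 0.051) came first, both with an adjusted p of 0.906, and 0 members had an unadjusted p under 0.05, against 5.09% of all genes. There 0% of all genes were called. The response to fluoxetine differed between genotype labels for no called member or gene, with Nrxn2 (−0.14 ± 0.052, adjusted p = 0.653) and Stxbp5 (0.12 ± 0.059, adjusted p = 0.802) at the smallest p. A single member, Nrxn2, had an unadjusted p under 0.05, against 6.18% of all genes.

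Males and females differed in no called member, beside 0.154% of all genes. The first were Sv2a (0.04 ± 0.017, male minus female, adjusted p = 0.464), Nrxn3 (0.06 ± 0.027, adjusted p = 0.523), Dnajc5 (0.03 ± 0.016, adjusted p = 0.64) and Unc13a (Munc13-1, −0.05 ± 0.028, adjusted p = 0.666). Above 0 were 23 members (49.6% of all genes), 2 members had an unadjusted p under 0.05 (7.85% of all genes), and the intervals of all 44 lay inside ±0.25. In the 14 comparisons within a single genotype or treatment and sex, limma called 0 members beside 0% to 0.0534% of all genes. At an unadjusted p under 0.05 there were 0 to 4 members, and the share of all genes at that threshold is not given here. For the HT label, 18 members (9.15% of all genes) lay below 0 in all 6 strata and 0 (7.21% of all genes) above. For lithium 17 (15.9% of all genes) lay above 0 and 7 (15.1%) below in all 4 strata, and for fluoxetine 17 (12.3%) above and 0 (10.7%) below.

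Many members followed the level of olfactory bulb markers across libraries. The mean log2 level of 5 bulb markers (Tbx21, Eomes, Cdhr1, Doc2g and Th) ran from 4.60 to 11.1 with gaps of at most 0.43 between neighbouring libraries. The lowest library of each group lay between 4.60 and 6.17, and the highest between 8.48 and 11.1. Across 59 libraries 36 of the 44 members followed it, 32 of them downward and 4 upward (Pearson r, two-sided permutation test with 100000 permutations, Benjamini-Hochberg over 88 pairs of member and list). Correlations below −0.5 were found for 26 members, against 12.4% of all genes, and above 0.5 for 3, against 11.1%. At the weakest r that passed for a member, 24.7% of all genes were as negative and 23% as positive. The libraries share these levels across genes, so the members are not independent points.

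The most negative r were those of Rims1, Rph3a, Ppfia3 and Cplx2. Rims1 had r = −0.79 and rho = −0.81, Rph3a r = −0.78 and rho = −0.77, Ppfia3 r = −0.77 and rho = −0.77, and Cplx2 (complexin 2) r = −0.76 and rho = −0.77. Each had an adjusted permutation p of 3.03e-05, from a raw p of 1e-05, the smallest these permutations can give. In the library with the lowest bulb level, WT-labelled fluoxetine male replicate 3, Rims1 stood at 12656 normalized counts and Cplx2 at 33113. In that with the highest, HT-labelled vehicle male replicate 3, they stood at 7164 and 17153, ratios of 0.566 and 0.518. Without the 2 libraries farthest from the median of the bulb level Rims1 had r = −0.78 and Cplx2 r = −0.75. With both measures centred on the 12 group means Rims1 had r = −0.85 and Cplx2 r = −0.80, so the relation held within groups.

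The opposite direction held 4 genes. Rab3b (a Rab3 family member) had r = 0.74 and rho = 0.76, Sv2c r = 0.74 and rho = 0.76, Ppfia2 (liprin alpha 2) r = 0.72 and rho = 0.74, each with an adjusted permutation p of 3.03e-05, and Nrxn3 r = 0.38 and rho = 0.36 (adjusted permutation p = 0.00845). Between the libraries of lowest and highest bulb level Sv2c went from 1061 to 2541 normalized counts and Rab3b from 1390 to 2444, ratios of 2.39 and 1.76. Without the 2 libraries farthest from the median r was 0.73 for Rab3b, 0.71 for Sv2c, 0.74 for Ppfia2 and 0.37 for Nrxn3. Family members thus stood on opposite sides: Rab3a at −0.57 and Rab3b at 0.74, Sv2b at −0.67 and Sv2c at 0.74, Ppfia3 at −0.77 and Ppfia2 at 0.72. The 8 members that did not pass were Syn3, Sv2a, Dnajc5, Doc2b, Cplx1, Rims3, Bin1 and Nrxn2, and Bin1 (0.02), Sv2a (0.03) and Rims3 (−0.01) were nearest to 0. By role, 8 of 9 SNARE genes, 10 of 12 active zone genes, 7 of 12 vesicle genes, 4 of 5 synaptotagmin and Doc2 genes and 3 of 4 endocytosis genes passed with a negative r.

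**Figure D4:**
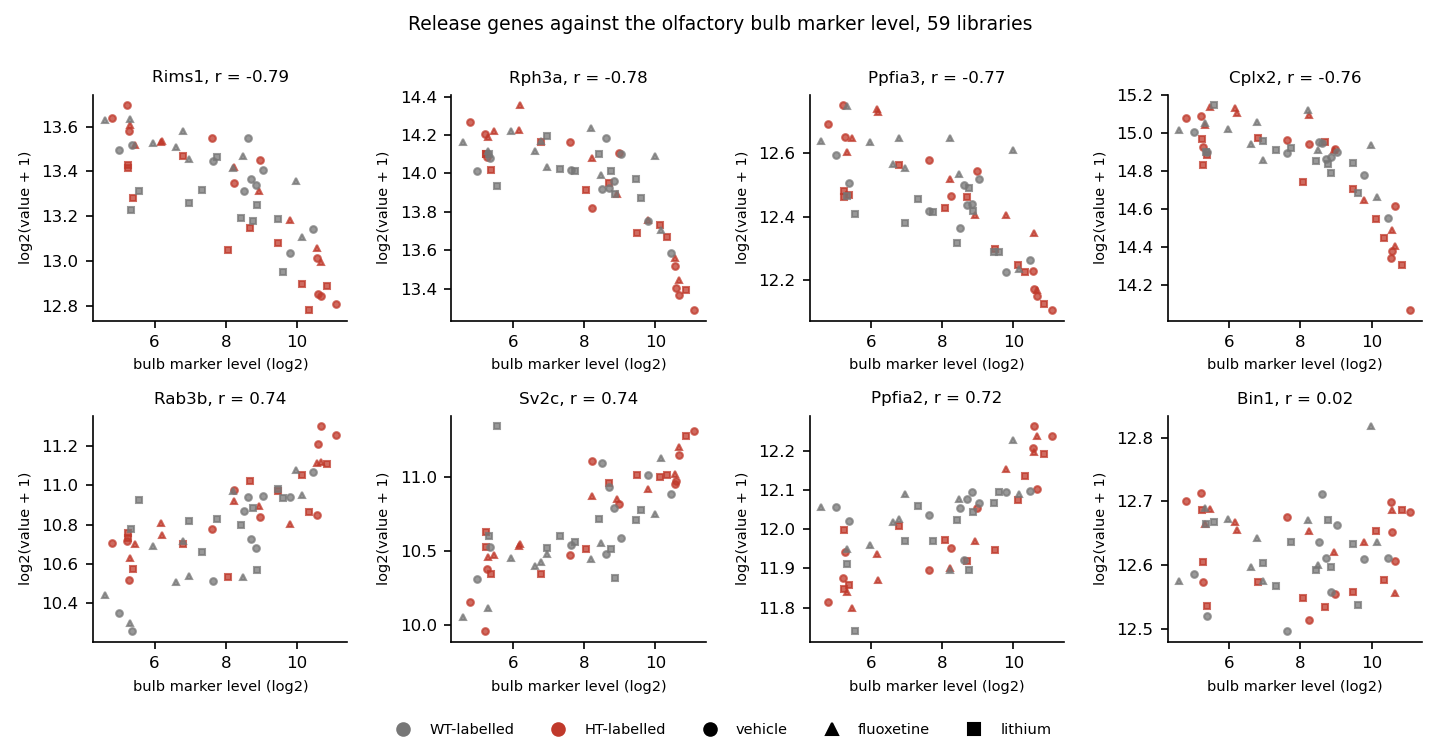
Log2 level (value + 1) of 8 release genes against the olfactory bulb level (mean log2 of 5 markers) in 59 libraries, coloured by genotype label and shaped by treatment. Rims1, Rph3a, Ppfia3 and Cplx2 fall along the axis (r from −0.79 to −0.76), Rab3b, Sv2c and Ppfia2 rise (r from 0.72 to 0.74) and Bin1 stays level (r = 0.02).

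Striatal markers gave weaker correlations with the members. Their mean log2 level ran from 7.99 to 11.1, with gaps of up to 0.89 between the highest libraries. Across 59 libraries 7 of 44 members passed, 4 positive and 3 negative. Doc2b had r = 0.68 and rho = 0.63 (adjusted permutation p = 3.03e-05), and Sv2c r = 0.41 and rho = 0.47 (adjusted permutation p = 0.00248). Syt11, a synaptotagmin that does not bind calcium (r = 0.31, rho = 0.35, adjusted permutation p = 0.0413), and Rab3b (r = 0.29, rho = 0.53, adjusted permutation p = 0.0491) were the other positive ones. Ppfia2 (r = −0.43, rho = −0.26, adjusted permutation p = 0.00163), Nrxn2 (r = −0.33, rho = −0.26, adjusted permutation p = 0.0305) and Rims3, a short RIM protein (r = −0.29, rho = −0.10, adjusted permutation p = 0.0484), were negative. Unc13b came next with r = −0.29 and an adjusted permutation p of 0.05, which did not pass. At the weakest r that passed for a member, 6.41% of all genes were as positive and 4.1% as negative.

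How many members passed, and which, moved with the libraries used. The share of all genes was taken only for the uncentred values of 59 libraries, so the counts here have none beside them. Without the 2 libraries farthest from the median 4 passed: Doc2b (r = 0.53), Syt11 (0.32), Cplx1 (0.30) and Ppfia2 (−0.32). Sv2c (0.28), Rab3b (0.29), Nrxn2 (−0.24) and Rims3 (−0.17) did not. Compared with their r over 59 libraries, those of Sv2c, Nrxn2 and Rims3 came nearer to 0, whereas that of Rab3b was little changed. Centred on the group means 6 passed: Doc2b (0.65), Sv2c (0.37), Syt11 (0.33), Cplx2 (0.32), Ppfia2 (−0.39) and Unc13b (−0.33). Within the 51 libraries not over 5 robust SDs, a choice made after the data were seen, 6 passed: Doc2b (0.41), Cplx1 (0.40), Nrxn3 (0.35), Syt11 (0.32), Rab3b (0.32) and Unc13a (−0.32). There Ppfia2 had −0.22 (adjusted permutation p = 0.193) and Sv2c 0.17 (adjusted permutation p = 0.364). Doc2b and Syt11 passed in each of these 4 sets of values. In the 8 libraries over 5 robust SDs Doc2b ran from 804 over 898 to 1254 normalized counts and in the other 51 from 500.2 over 731 to 988, with overlap.

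With the bulb level in the model, more members passed in both averaged comparisons that had calls. For the HT label 8 members were lower, beside 11.3% of all genes called: Syn2, Vamp2 and Dnajc5, and also Stx1a (−0.11, adjusted p = 0.0164), Erc2 (−0.09, adjusted p = 0.0145), Syp (−0.08, adjusted p = 0.0232), Rimbp2, a RIM-binding protein (−0.09, adjusted p = 0.0381), and Syngr1, a vesicle membrane protein (−0.08, adjusted p = 0.0486). For lithium 6 passed, beside 7.33% of all genes: Cplx1, Sv2a, Bsn (0.11, adjusted p = 0.0409) and Stxbp5 (0.08, adjusted p = 0.0499) higher, and Rims1 (−0.16, adjusted p = 0.00533) and Rims2 (−0.07, adjusted p = 0.0406) lower. With the first principal component of the tested log2 values as covariate, which carried 19.4% of their variance, 3 members were higher and 7 lower with lithium, beside 8.74% of all genes. With the excitatory level, a covariate chosen after the data were seen, 5 were higher and 6 lower, beside 9.57%. The lower ones included Rims1 (−0.19, adjusted p = 4.33e-06 and −0.18, adjusted p = 3.1e-05), Syn1 (synapsin 1, −0.10 and −0.09), Rab3a (−0.07 in both) and Vamp2 (−0.07 in both). For the HT label these covariates gave 3 and 2 calls, all lower, beside 8.23% and 7.17% of all genes. Genotype directions are again those of the labels.

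**Figure D5:**
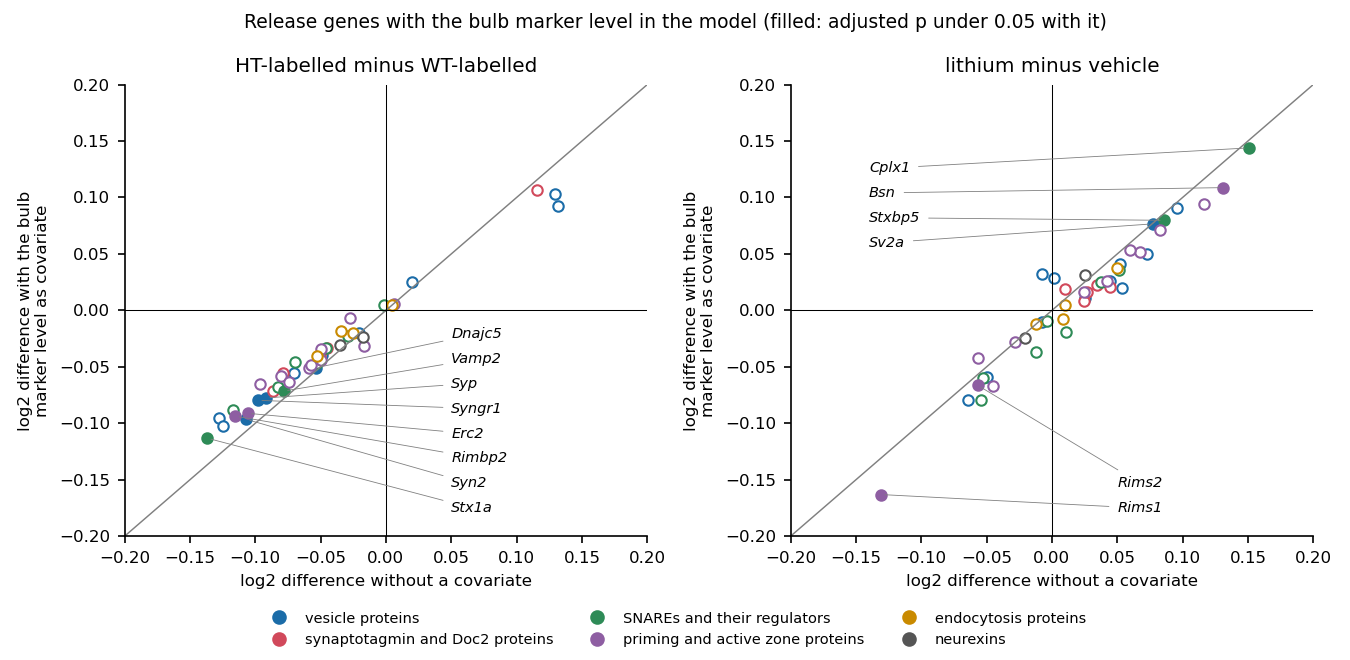
Log2 difference of the 44 release genes without a covariate (x axis) and with the olfactory bulb level as covariate (y axis), coloured by role and filled where the adjusted p with the covariate is under 0.05. For the HT label 8 filled points lie below 0, and for lithium Rims1 is the lowest filled point, at −0.13 without and −0.16 with the covariate.

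A list of other presynaptic genes, of which 70 were tested, stood beside the members. For the HT label 8 of 70 were called, all lower, beside 4.31% of all genes called lower, and 55 lay below 0, beside 49.2% of all genes. Syngr3, a synaptogyrin of vesicles, had the smallest p (−0.17 ± 0.022, adjusted p = 6.82e-07), and it was also called under vehicle (−0.18 ± 0.038, adjusted p = 0.0184) and under fluoxetine (−0.18 ± 0.039, adjusted p = 0.00889). Vamp4, a SNARE of endosomes (−0.08), Apba1, the Munc18 partner Mint1 (−0.07), Syt4 (−0.14), Syt5 (−0.12) and Lin7b (−0.13) were also among the 8, with adjusted p from 0.00308 to 0.0489. Apba1 was called under fluoxetine as well (−0.13 ± 0.030, adjusted p = 0.017). For lithium 4 of 70 were called, all higher, beside 2.8% of all genes called higher: Stxbp5l (tomosyn 2, 0.18 ± 0.053), Syngr3 (0.09 ± 0.027), Snap29 (0.09 ± 0.026) and Cltc, the clathrin heavy chain (0.08 ± 0.019), with adjusted p from 0.0153 to 0.0399. Limma called 0 of the 70 for fluoxetine or sex, with 9 and 1 at an unadjusted p under 0.05, beside 11.9% and 7.85% of all genes.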

How the data were processed

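RNA of 59 libraries was prepared with a TruSeq Stranded mRNA kit, per the labels' protocols. The authors deposited 1 table of a normalized signal, estimated counts scaled between libraries, not whole numbers, with totals of 30342600 to 33683900 per library. The tools Salmon (0.11.2), DESeq2 (1.19.11) and R (3.6.0) and the build GRCm38 are named, with no roles, per the submitters' processing notes; whether the factor also differs by gene is not given in the sources used here, and depth in reads is unknown. Gene symbols matched 51285 identifiers and not 171. Salmon divides reads among similar transcripts.

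The test was limma 3.58.1 with statmod 1.5.0 in R 4.3.3, applied to log2(value + 1), which understates changes of low genes. A model with a mean for each of 12 groups held all 59 libraries and 16839 genes with a mean of at least 10; variances were shrunk with trend and robust options, p-values are two-sided and Benjamini-Hochberg adjusted over all genes, and a call is an adjusted p under 0.05. A value after ± is the SE. There were 13 comparisons and 14 within single strata. Lengths are merged exons of the GRCm38 annotation (GENCODE). Correlations used permutation tests. The members and lists were chosen with earlier results of these data known. Named genes were all called members, the 4 smallest p in averaged comparisons and 2 in the others, the 3 smallest and 3 largest residual SDs, and the 4 most positive and negative correlations with each list. Alternatives were no trend and robust shrinkage, TMM factors, no filter, a pseudocount of 0.5, a replicate block, the groups of a comparison alone, covariates, and each library left out. The script was tested on simulated data. Some genes of the other presynaptic list are not reported here.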

Additional observations from a re-analysis of the deposited data

Results flagged for a closer look

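Among 60 sets of the 5 called genes in the 12 groups, 5 held a library far from the rest of its group by Dixon's test; chance flags about 1 in 20, so 5 of 60 is close to that. WT-labelled vehicle male replicate 5 was lowest for both Syn2 (15875 normalized counts, the other 4 at 18120 to 18879) and Dnajc5 (12735, the others at 13664 to 13837). Dnajc5 was also lowest in WT-labelled fluoxetine female replicate 2 (12074, the others at 13041 to 13334) and highest in HT-labelled lithium male replicate 5 (13386, the others at 12611 to 12804). Sv2a was highest in WT-labelled vehicle male replicate 1 (16544, the others at 14694 to 15069). The calls of these genes held without each of these libraries.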

How the results depend on the processing

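No called difference between groups changed sign under any alternative. The r of Rims3 with the striatal list, −0.29 over 59 libraries, was 0.10 within the 51 libraries not over 5 robust SDs. Syn2, Vamp2, Cplx1 and Sv2a kept their calls in the averaged comparisons under each of the 11 other settings, and Dnajc5 under 9 of them. Leaving out each of 59 libraries in turn ended none of the 5 calls (adjusted p from 0.0123 to 0.0394 for Dnajc5 and from 0.00984 to 0.0412 for Sv2a). Members called numbered 3 to 6 for averaged genotype, 0 to 1 for genotype under fluoxetine, 0 to 1 for fluoxetine in WT-labelled libraries and 2 to 3 for averaged lithium. Of all 16839 genes, 1097 to 1677, 74 to 339, 9 to 230 and 561 to 881 were called in these comparisons, in that order. The count for averaged genotype was 6 without HT-labelled vehicle male replicate 1 or WT-labelled fluoxetine male replicate 5, and 5 without HT-labelled vehicle female replicate 2 or WT-labelled vehicle male replicate 5. In the remaining comparisons it was 0 throughout.

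Averaged genotype had 8 members called with the bulb covariate in place of 3, beside 11.3% of all genes. Averaged lithium had 10 with the first principal component, 6 with the bulb level and 11 with the excitatory level, in place of 2. Of all genes 8.74%, 7.33% and 9.57% were called there. Genotype under fluoxetine had 1 (Syn2) with each of these 3 covariates. Calls of all genes there went from 143 to 332, 268 and 303 with the component, bulb and excitatory levels. Lithium in HT-labelled libraries had 1 with the component and 3 with the excitatory level, and lithium in WT-labelled libraries 2 and 3. With these 2 covariates, calls of all genes for lithium went from 40 to 174 and 218 in HT-labelled libraries. In WT-labelled libraries they went from 36 to 223 and 308. The single strata had 2, 1 and 2 with the component, bulb and excitatory levels, and their counts of all genes are not given here. The striatal relation had 4 members passing, in place of 7, without the 2 libraries farthest from the median. The cause was not tested.

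Replicate numbers were not taken to pair the libraries, since not every same-numbered pair correlated at over 0.1. A shared batch need not meet that rule, so it cannot decide whether the numbers mark one, which was not tested. Among 319 same-numbered pairs correlations were −0.37 to 0.55 with a median of 0.05, 123 of them over 0.1, and among 1276 pairs of different numbers the median was −0.02, with 307 over 0.1. A replicate block gave 7 members for averaged genotype (beside 10.9% of all genes), 1 for genotype under fluoxetine, 1 for fluoxetine in WT-labelled and 1 for lithium in WT-labelled libraries. In the last 3 of these comparisons, calls of all genes went from 143 to 257, from 32 to 113 and from 36 to 144. No other count of members changed by over 1.5 times. Over all genes, averaged genotype had 877 to 1907 calls around 1344, averaged lithium 483 to 1611 around 742, averaged fluoxetine 1 to 43 around 11 and sex 25 to 73 around 26. With TMM factors the median difference over all genes shifted by at most 0.0048. With 4 or 5 libraries a side, single strata had fewer libraries behind each value than the averaged comparisons.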
